A study of Mus musculus with 2 samples.

Results

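The 47 genes described here encode proteins that copy DNA in S phase and were chosen by symbol. All 47 were found among the 23284 gene symbols listed in the files. They fall into 14 licensing genes, 28 fork genes and 5 genes of nucleotide supply. Their mRNA was measured by RNA-seq in leukemic stem cells (LSCs) from mice with a transplanted chronic myeloid leukemia (CML), in 1 library of WT and 1 of STAP-1 KO origin. The donors of the first library were wild type and those of the second carried a targeted disruption of Stap1, a signal-transducing adaptor gene, both on the C57BL/6J background. In both groups LSK cells (lineage marker negative, Sca-1 positive and c-Kit positive) had been transduced with a retrovirus that carries p210 BCR-ABL and GFP and transplanted, with normal marrow cells, into lethally irradiated C57BL/6SJL recipients, and GFP+ CD45.2+ LSK cells were sorted at day 11. The mice of the study were 8 to 14 weeks old. No source states how many mice were pooled in a library. BCR-ABL was driven by the retroviral vector in cells that had taken it up, and sorted cells can carry different insertions. With 1 library per genotype no difference has a replicate check, so no p-value is given, and the genotype cannot be told apart from the mice used, the sort or the library preparation.

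DNA replication proceeds in steps. In G1, the origin recognition complex (ORC) with CDC6 and CDT1 loads the MCM2-7 helicase onto origins, which licenses them. In S phase, CDC45 and GINS join MCM2-7 to form the active helicase, DNA polymerase alpha with primase starts each new strand, polymerases epsilon and delta extend it, and PCNA, its loader RFC, the flap nuclease FEN1, DNA ligase 1 and the single-strand binding protein RPA complete the fork. Ribonucleotide reductase, thymidine kinase, thymidylate synthase and dUTPase keep up the supply of deoxynucleotides. Many of these genes are transcribed at the G1 to S transition under E2F factors and their RB family repressors, so that their mRNA is commonly read as a mark of cycling cells.

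Promoter sequences are shown because the members are known as E2F targets and because most of them differed in the same direction between the libraries. For 39 of the 47 members, RefSeq (GRCm38.p6) promoter windows from 250 bases before to 50 bases after the gene start were at hand. Gins1, Gins2, Gins4, Mcm4, Pole, Prim2, Rfc2 and Tipin have no entry. The windows were searched on both strands for 4 spellings of the E2F site (TTTCGCGC, TTTGGCGC, TTTCCCGC and TTTGCCGC) and for CCAAT, the letters bound by NF-Y. The printed windows hold 170 bases up to the base before the gene start, 5′ to 3′ on the strand of the gene. Capitals mark E2F and CCAAT letters, and those found on the other strand appear as their reverse complement. RefSeq starts can differ from the GENCODE gene bounds given further on. Mcm5 and Mcm6 stand for the helicase, Cdc6 for its loader, Gins3 and Pola1 for the fork, and Orc1 for the licensing gene that was not higher in STAP-1 KO LSCs.
Mcm5, chr8:75109339-75109508, plus strand: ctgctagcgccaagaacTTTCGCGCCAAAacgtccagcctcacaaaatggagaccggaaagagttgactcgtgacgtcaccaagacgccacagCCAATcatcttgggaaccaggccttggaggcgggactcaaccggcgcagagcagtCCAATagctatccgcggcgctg
Mcm6, chr1:128359706-128359875, minus strand: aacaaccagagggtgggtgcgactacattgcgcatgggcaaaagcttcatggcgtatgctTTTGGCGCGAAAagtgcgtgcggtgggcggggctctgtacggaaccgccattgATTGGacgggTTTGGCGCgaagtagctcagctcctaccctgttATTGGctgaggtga
Cdc6, chr11:98907981-98908150, plus strand: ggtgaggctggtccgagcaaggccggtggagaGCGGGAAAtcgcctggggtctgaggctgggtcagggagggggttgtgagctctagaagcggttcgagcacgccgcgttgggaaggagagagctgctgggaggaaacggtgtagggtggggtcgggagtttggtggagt
Gins3, chr8:95633389-95633558, plus strand: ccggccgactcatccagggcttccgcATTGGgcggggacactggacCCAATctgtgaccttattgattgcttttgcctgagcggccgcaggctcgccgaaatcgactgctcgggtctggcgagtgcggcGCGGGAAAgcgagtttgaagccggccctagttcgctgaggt
Pola1, chrX:93632156-93632325, minus strand: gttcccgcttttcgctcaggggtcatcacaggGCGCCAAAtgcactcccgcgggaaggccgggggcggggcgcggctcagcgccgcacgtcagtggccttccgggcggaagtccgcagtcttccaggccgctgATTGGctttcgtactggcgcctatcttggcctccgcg
Orc1, chr4:108579284-108579453, plus strand: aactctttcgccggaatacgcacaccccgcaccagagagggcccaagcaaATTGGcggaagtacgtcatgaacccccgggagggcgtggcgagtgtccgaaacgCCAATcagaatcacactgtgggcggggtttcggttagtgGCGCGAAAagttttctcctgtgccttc

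In Mcm5 the spellings TTTCGCGC and TTTGGCGC overlapped as an inverted repeat that starts 153 bases before the gene start, and Mcm6 held the same kind of repeat from 110 bases before the start and a further E2F match 47 bases before it. Cdc6 and Pola1 each held 1 match, both 138 bases before the start, Gins3 held 1 at 41 bases and Orc1 held 1 at 27 bases. Among all members with a window, 15 of 39 (38.5%) held at least 1 E2F match. This compares with 704 of all 27025 genes that have a window (2.605%) and with 382 of the 7891 such genes whose mean of the libraries was at least 1 FPKM (4.84%). By group, 8 of 13 licensing members, 7 of 21 fork members and 0 of 5 nucleotide supply members held a match, and no match says only that these letters were not in this window. CCAAT letters were found in 23 of 39 members (58.97%), against 41.1% of all genes and 43.6% of those with a mean of at least 1 FPKM. Both kinds of letters were held by 8 members. The E2F letters did not separate the members by their difference between the libraries. The 15 members with a match had a median log2 ratio (STAP-1 KO over WT) of 0.97, with a range from -0.14 to 1.68, and the 24 without had a median of 0.97, with a range from 0.21 to 1.60.

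Levels are given in FPKM, the fragment counts scaled by the authors to transcript length and sequencing depth, so levels of different genes can be set side by side. Log2 ratios compare STAP-1 KO with WT after 0.1 FPKM was added to both, and plain folds are ratios of the FPKM themselves. From the steps between low FPKM values, an effective depth of 7500000 reads in WT LSCs and 10480000 reads in STAP-1 KO LSCs was estimated, and with it the members rested on about 121 to 7894 reads in WT LSCs and 299 to 15226 reads in STAP-1 KO LSCs. The 95% intervals given in brackets are exact (Clopper-Pearson), cover counting error only, and assume that reads come from the longest coding transcript, so that they are too narrow where a shorter transcript dominates. Stap1 itself had 61.95 FPKM in WT LSCs and 0.309 FPKM in STAP-1 KO LSCs. Of the sorting antigens, Kit had 468 and 30.1 FPKM and Ly6a (Sca-1) had 285 and 106 FPKM. Of 10 mast cell and basophil markers all 10 were lower in STAP-1 KO LSCs (51462 against 5276 summed FPKM, none at 0 in either), and of 5 primary granule markers all 5 were higher (564 against 4623 summed FPKM, none at 0 in either). Of 5 listed erythroid markers (Hbb-bs and Hbb-bt were not among the symbols) 2 had a log2 ratio above 0, and their sum (993 and 573 FPKM) rested on the near-identical alpha globin genes Hba-a2 (773 and 15.9 FPKM) and Hba-a1 (34.8 and 379.8 FPKM), between which reads may be split uncertainly. Of 5 megakaryocyte markers 4 were above 0 (against 48.3% of all genes). Their sum (194 and 131 FPKM) followed Itga2b (123 and 32.5 FPKM), the marker below 0. Of 4 lineage antigens averaging 1 FPKM or more, 1 had a log2 ratio above 0, Ly6c2 with 20.5 and 97.96 FPKM. The part of these cell type differences in the values of the replication genes was not tested. In bulk RNA, more cells in cycle and more RNA per cell cannot be told apart. By flow cytometry, the paper reports that cell cycle status did not differ significantly between LSCs of the genotypes. It stained a proliferation marker in LSCs and read BrdU in GFP+ lineage negative c-Kit positive cells, without a Sca-1 gate. How the mRNA levels given here relate to that measurement was not tested.

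Of the 47 members, 45 had a higher level in STAP-1 KO LSCs than in WT LSCs, against 48.3% of the 10974 genes whose libraries averaged 1 FPKM or more. All 47 members passed that minimum. The median log2 ratio of the members was 0.97, against -0.04 for all genes. At a cut-off of a 2-fold difference, with at least 0.1 FPKM in both libraries, 22 members (46.8%) were higher, against 12.3% of the 12507 genes that could be compared, and 1 member was lower, against 22.9%. Many differences were close to 2-fold, with 38 members at least 1.5-fold higher (against 25.6% of all genes) and 4 at least 3-fold higher (against 4.21%), so that the cut-off divided like values: Cdc6 (1.96-fold) and Mcm6 (1.96-fold) fell just below it, and Gins4 (2.005-fold), Tyms (2.02-fold), Pcna (2.02-fold) and Orc6 (2.02-fold) fell just above it. In 7 of the 22 genes the counting interval reached below 2-fold. For 45 members the interval lay above 0, for Pole it lay below 0, and for Orc1 it included 0. The summed level of the 47 genes was 2729 FPKM in WT LSCs and 5100.4 FPKM in STAP-1 KO LSCs. Their order was largely shared, with a Spearman rank correlation of 0.94 between the libraries across the 47 genes, which are not independent replicates. The level in WT LSCs and the log2 ratio had a rank correlation of -0.07 across the same genes.

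**Figure D1:**
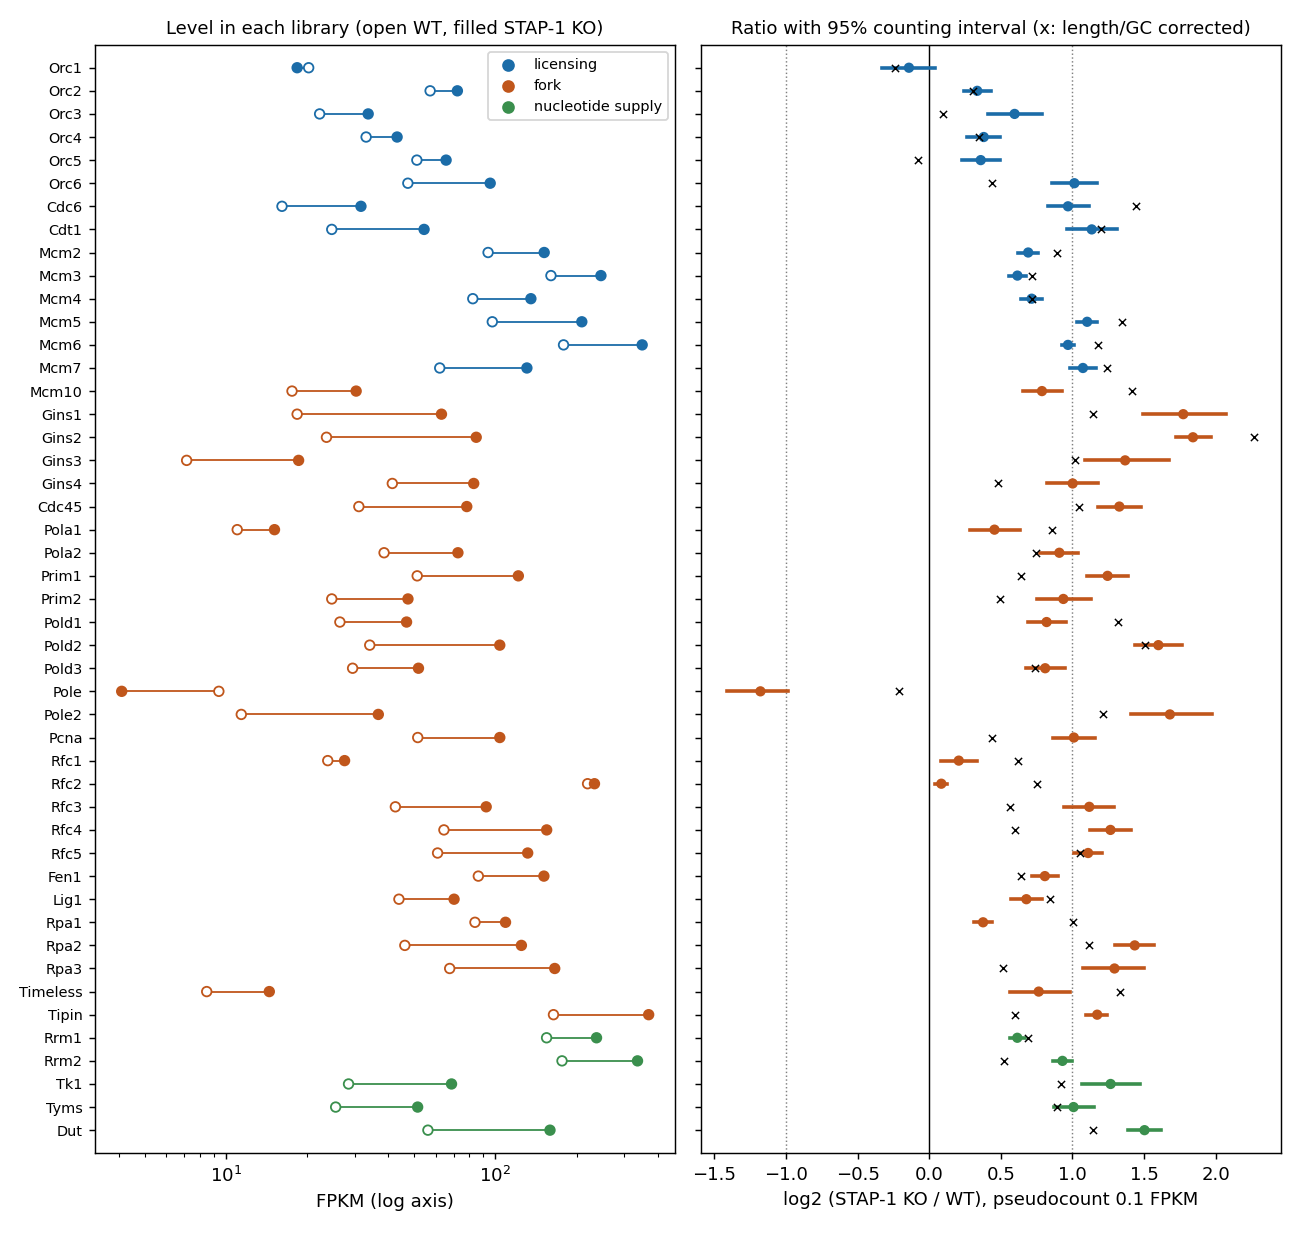
Level of each of the 47 members in FPKM on a log axis (left; open circle WT, filled circle STAP-1 KO) and its log2 ratio with the 95% counting interval as a bar (right; crosses give the ratio corrected for transcript length and GC; dotted lines mark 2-fold). Filled circles lie to the right of open circles for 45 genes, and Pole at -1.18 (-0.21 corrected) is the one gene past 2-fold downwards.

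The licensing genes had the smallest median among the groups, 0.70 over 14 genes, and 13 of them were higher in STAP-1 KO LSCs. The 6 ORC genes, whose products mark origins, had a median log2 ratio of 0.37. Orc1, which encodes the largest subunit and lies on chromosome 4 from 108579423 to 108614833, had 20.3 FPKM in WT LSCs and 18.4 FPKM in STAP-1 KO LSCs, a log2 ratio of -0.14 (-0.33 to 0.04). Orc2 had 57.2 and 72.2 FPKM, Orc4 had 33.1 and 43.2 FPKM and Orc5 had 51.1 and 65.6 FPKM, so that these core subunits differed by less than 1.5-fold. Orc3 was slightly further apart, with 22.3 and 33.7 FPKM, a ratio of 1.51. Orc6, which encodes the smallest subunit, was the ORC gene past the cut-off, with 47.3 FPKM in WT LSCs and 95.6 FPKM in STAP-1 KO LSCs (log2 ratio 1.014, 0.85 to 1.17). As a result the order within ORC differed: Orc2 was the most abundant ORC mRNA in WT LSCs (24.7% of the summed ORC FPKM) and Orc6 in STAP-1 KO LSCs (29.1%, from 20.5% in WT). With transcript length and GC taken into account, as described further on, Orc6 was at 0.44 and no longer past 2-fold. Its value was then near those of Orc2 (0.31) and Orc4 (0.35). Orc3 was at 0.10, and Orc1 (-0.24) and Orc5 (-0.08) were below 0.

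The loading factors differed more than most ORC genes. Cdc6, the ATPase that joins ORC on DNA, had 16.1 FPKM in WT LSCs and 31.7 FPKM in STAP-1 KO LSCs, with a log2 ratio of 0.97 (0.83 to 1.12). Cdt1, which brings MCM2-7 to the origin, had 24.7 and 54.3 FPKM, a log2 ratio of 1.14 (0.96 to 1.31). The geminin gene Gmnn, which encodes the inhibitor of CDT1 and is not one of the 47, had 71.6 and 170.2 FPKM, so that the loader and its inhibitor were both higher.

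The 6 genes of the MCM2-7 helicase were all higher in STAP-1 KO LSCs, with log2 ratios between 0.62 and 1.10. Mcm6 had the highest level, 179 FPKM in WT LSCs and 350.5 FPKM in STAP-1 KO LSCs (log2 ratio 0.97, 0.92 to 1.013). Mcm3 had 161 and 246 FPKM, a log2 ratio of 0.62 (0.56 to 0.67), whereas Mcm5 had 97.4 and 209 FPKM, a log2 ratio of 1.10 (1.03 to 1.17). The intervals of Mcm3 and Mcm5 did not overlap, so that the subunits of this hexamer were not all different by 1 common factor within counting error. Mcm2 had 93.9 and 152 FPKM, Mcm4 had 82.4 and 135 FPKM, and Mcm7 had 62.1 and 131 FPKM. The order of the 6 mRNAs was the same in both libraries (Mcm6, Mcm3, Mcm5, Mcm2, Mcm4, Mcm7), and the highest exceeded the lowest by 2.88-fold in WT LSCs and 2.68-fold in STAP-1 KO LSCs.

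Over the 28 fork genes the median log2 ratio was 1.006, and 27 of them were higher in STAP-1 KO LSCs and 15 passed 2-fold. Among the genes that turn the loaded helicase into an active one, Gins1 and Gins2 had the largest log2 ratios of the 47. With transcript length and GC taken into account Gins2 had the highest value (2.27) and Gins1 did not (1.15, below Pold2 at 1.51 and others). The corrected value of Gins2 rests on its longest coding transcript of 3900 bases, and it would differ if a shorter transcript dominates. Gins1 had 18.4 FPKM in WT LSCs and 63.0 FPKM in STAP-1 KO LSCs (log2 ratio 1.77, 1.49 to 2.07). Gins2 had 23.6 and 84.9 FPKM, a log2 ratio of 1.84 (1.72 to 1.97). The other GINS subunits differed less, as Gins3 had 7.14 and 18.6 FPKM and Gins4 had 41.4 and 83.1 FPKM. Gins2 lies on chromosome 8 from 120578633 to 120589304, and 67.3% of its annotated exonic bases are shared with exons of Gse1 on the opposite strand. Gse1 had 8.49 and 3.10 FPKM, which is the opposite direction to Gins2. In all, 13 members share at least 5% of their exonic bases with another annotated gene, and without them the median log2 ratio of the remaining 34 was 0.95. Cdc45, the partner of GINS in the helicase, had 31.1 and 78.3 FPKM, a log2 ratio of 1.33 (1.18 to 1.48). Mcm10, which acts in helicase activation, had 17.6 and 30.4 FPKM, a log2 ratio of 0.79 (0.65 to 0.93), below Cdc45 and every GINS gene, although with transcript length and GC taken into account, as described further on, it was 1.42 against 1.05 for Cdc45 and 0.48 for Gins4.

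Among the polymerases the subunits of a complex did not all differ alike. Polymerase alpha starts new strands, and its catalytic gene Pola1 had 11.004 FPKM in WT LSCs and 15.1 FPKM in STAP-1 KO LSCs (log2 ratio 0.46, 0.29 to 0.63). The accessory gene Pola2 had 38.6 and 72.6 FPKM, and the primase genes Prim1 and Prim2 had 51.2 and 122 FPKM and 24.7 and 47.3 FPKM. Prim1 showed the largest difference in this complex, 2.37-fold, and Pola1 the smallest, 1.375-fold, but with transcript length and GC taken into account the order turned, with log2 ratios of 0.64 for Prim1 and 0.86 for Pola1. For polymerase delta, which extends the lagging strand, the catalytic gene Pold1 had 26.5 and 46.8 FPKM and Pold3 had 29.5 and 51.8 FPKM, while Pold2 had 34.2 and 104 FPKM, a log2 ratio of 1.60 (1.43 to 1.77). With length and GC taken into account Pold1 (1.32) was near Pold2 (1.51) and further from Pold3 (0.74). Pold4, the small subunit outside the 47 genes, had 34.8 and 18.97 FPKM and was the least abundant of the 4 mRNAs in STAP-1 KO LSCs.

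Polymerase epsilon, the leading-strand enzyme, had subunits on both sides of 0. Its catalytic gene Pole, on chromosome 5 from 110286306 to 110337474, had 9.40 FPKM in WT LSCs and 4.10 FPKM in STAP-1 KO LSCs. Its log2 ratio of -1.18 (-1.41 to -0.99) made it the only member that was lower past the cut-off, a call that ended with length and GC taken into account (-0.21). The accessory gene Pole2, on chromosome 12, had 11.4 and 36.7 FPKM, a log2 ratio of 1.68 (1.41 to 1.98). The mRNA of Pole2 exceeded that of Pole by 1.21-fold in WT LSCs and by 8.96-fold in STAP-1 KO LSCs. The histone-fold subunits Pole3 (64.5 and 102.2 FPKM) and Pole4 (37.5 and 91.0 FPKM), which are not among the 47 genes, were higher in STAP-1 KO LSCs, as Pole2 was.

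**Figure D2:**
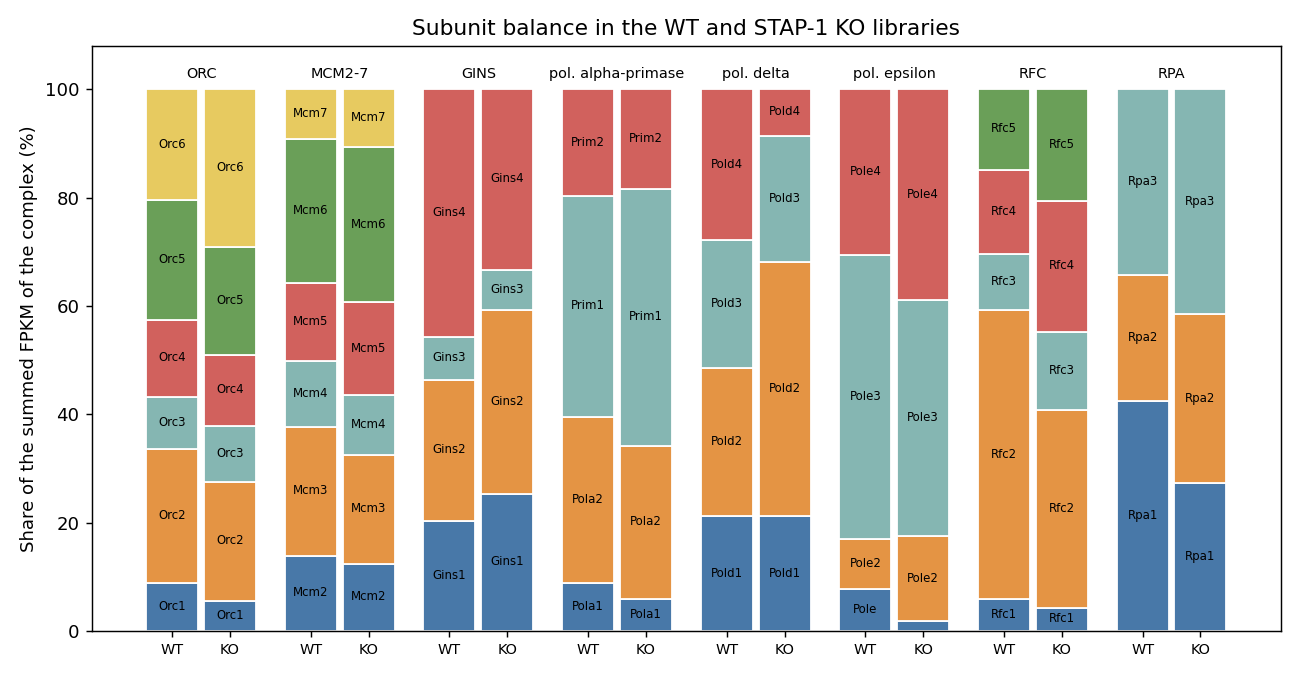
Share of each subunit in the summed FPKM of its complex, in percent, in the WT and the STAP-1 KO library (Pold4, Pole3 and Pole4 are added to the members to complete the complexes). The order within MCM2-7 is the same in both, with Mcm3 at 23.8% and 20.1% and Mcm5 at 14.4% and 17.1%. Pole goes from 7.66% to 1.75% (the unlabelled strip at the foot of the KO bar), Rfc2 from 53.4% to 36.4% and Pold4 from 27.9% to 8.57%. Once corrected for length and GC, the log2 ratios of Pole, Rfc2 and Pold4 are -0.21, 0.75 and -1.13.

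The sliding clamp gene Pcna had 51.5 FPKM in WT LSCs and 104 FPKM in STAP-1 KO LSCs (log2 ratio 1.0103, 0.86 to 1.16). Its loader RFC has 1 large and 4 small subunits, and 3 of the small ones were higher past the cut-off: Rfc3 (42.5 and 92.4 FPKM), Rfc4 (64.4 and 155 FPKM) and Rfc5 (61.0 and 132 FPKM). The large subunit gene Rfc1 had 23.9 and 27.5 FPKM, a log2 ratio of 0.21 (0.08 to 0.33). With transcript length and GC taken into account Rfc1 was at 0.62, near Rfc3 at 0.57 and Rfc4 at 0.60, while Rfc5 was higher at 1.05. Rfc2, the remaining small subunit gene, had 219.8 and 233 FPKM, a log2 ratio of 0.08 (0.04 to 0.13). In WT LSCs the level of Rfc2 was 3.93-fold the mean of Rfc3, Rfc4 and Rfc5, and in STAP-1 KO LSCs it was 1.84-fold. With length and GC taken into account the log2 ratio of Rfc2 was 0.75, above those of Rfc3 and Rfc4 and below that of Rfc5. Rfc2 lies on chromosome 5 from 134581366 to 134601805 on the plus strand, and 952 of its exonic bases (15.1%) are shared with exons of Lat2 on the opposite strand. Lat2, an adaptor gene of mast cells and other immune cells, had 503 FPKM in WT LSCs and 99.4 FPKM in STAP-1 KO LSCs. The cDNA and library kits named in the labels do not mark strand, so reads of the shared bases cannot be assigned to 1 of the genes, and the part of Lat2 in the level of Rfc2 was not tested. The longest coding transcript of Rfc2 is 4995 bases, and its interval is among those that a shorter transcript would widen.

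The genes that finish the fork were higher by less or more than 2-fold depending on the gene. Fen1, which removes the flaps of Okazaki fragments, had 86.4 and 151 FPKM, and Lig1, which seals them, had 43.8 and 70.2 FPKM, with log2 ratios of 0.81 (0.72 to 0.90) and 0.68 (0.57 to 0.79). Exons of an annotated antisense gene, Gm10143, share 78.8% of the exonic bases of Fen1, and the level of Gm10143 was not analysed here. In RPA, which covers single-stranded DNA, the large subunit gene Rpa1 had 83.95 and 109 FPKM, whereas Rpa2 had 46.1 and 125 FPKM and Rpa3 had 67.6 and 166 FPKM. The log2 ratio of Rpa1 was 0.38 (0.31 to 0.44), below those of Rpa2 at 1.44 (1.30 to 1.57) and Rpa3 at 1.29 (1.07 to 1.501), and its place among the 3 mRNAs went from the highest in WT LSCs to the lowest in STAP-1 KO LSCs. With length and GC taken into account Rpa1 (1.005) was above Rpa3 (0.51). The fork protection genes Timeless (8.48 and 14.5 FPKM) and Tipin (164 and 371 FPKM) were both higher, and the mRNA of Tipin exceeded that of its partner by 19.4-fold in WT LSCs and 25.6-fold in STAP-1 KO LSCs. With length and GC taken into account the log2 ratio of Timeless (1.34) was above that of Tipin (0.60).

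All 5 genes of nucleotide supply were higher in STAP-1 KO LSCs, with a median log2 ratio of 1.008. Dut, which encodes the dUTPase that keeps uracil out of DNA, had 56.2 FPKM in WT LSCs and 159 FPKM in STAP-1 KO LSCs (log2 ratio 1.504, 1.39 to 1.62). Tk1, the S-phase thymidine kinase, had 28.5 and 68.7 FPKM, and Tyms, which makes dTMP, had 25.5 and 51.4 FPKM. With length and GC taken into account Tk1 (0.92) and Tyms (0.89) were no longer past 2-fold. The ribonucleotide reductase genes differed by less than 2-fold, with 155 and 237 FPKM for the large subunit gene Rrm1 and 177 and 337 FPKM for the small subunit gene Rrm2. The log2 ratios of Rrm1 (0.62, 0.56 to 0.67) and Rrm2 (0.93, 0.86 to 0.99) did not overlap in their counting intervals, although the correction for length and GC reversed their order (0.69 and 0.52). Rrm2 exceeded Rrm1 by 1.14-fold in WT LSCs and 1.42-fold in STAP-1 KO LSCs.

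Licensing genes had a median log2 ratio of 0.70, fork genes of 1.006 and nucleotide supply genes of 1.008, and their ranges overlapped (-0.14 to 1.14, -1.18 to 1.84 and 0.62 to 1.504). The share past 2-fold was 4 of 14, 15 of 28 and 3 of 5 in the same order, each set against the 12.3% of all genes given above. The difference between the groups was not tested, since genes of 1 pair of libraries are not replicates. With transcript length and GC content taken into account the medians were closer, at 0.72, 0.80 and 0.89. The shares past 2-fold also depended on it. Of the nucleotide supply genes only Dut (1.14) stayed past 2-fold, as Tk1 (0.92) and Tyms (0.89) did not. In the other groups calls changed in both directions, with Cdc6 (1.45) and Mcm6 (1.18) gained and Orc6 (0.44) and Pcna (0.44) lost. With Mcm2 to Mcm7 counted as fork genes, they were 0.49 for licensing and 0.99 for fork genes.

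That correction was made because the ratio of the libraries was smaller for longer transcripts. Across 10864 genes averaging 1 FPKM or more and matched to a transcript, Spearman's rank correlation between length and log2 ratio was -0.40, and across the 47 members it was -0.67, both within 1 pair of libraries. In each of 4 length classes with like numbers of genes, the median of the members was above that of all genes. In the shortest class, up to 1871 bases, 13 members had a median log2 ratio of 1.27, against 0.47 for all genes of that class. From 1872 to 2950 bases, 11 members had 0.94, against 0.20, and from 2951 to 4381 bases 15 members had 0.72, against -0.15. In the longest class, from 4382 bases, 8 members had a median of 0.42, against -0.76 for all genes, and 7 of the 8 were above 0 where 22.8% of all genes were. Many of the splits within complexes ran along length. Pole has a transcript of 7163 bases and Pole2 one of 1706 bases, and after the correction their log2 ratios were -0.21 and 1.21. Rpa1, with 5077 bases, went from 0.38 to 1.005 and came close to Rpa2 (1.12), while Rpa3, with 670 bases, went from 1.29 to 0.51. Orc6 and Pcna, with short transcripts, both went to 0.44 and were no longer past 2-fold. Rfc2 went from 0.08 to 0.75, and Orc1 went from -0.14 to -0.24. After the correction 44 of the 47 members were above 0 (Orc1, Orc5 and Pole were below), against 49.9% of all genes, and the median was 0.75. Among 12359 matched genes with at least 0.1 FPKM in both libraries, 17 members were at least 2-fold higher after correction, against 11.5% of all these genes. By the corrected log2 ratios printed here the count was slightly higher, with Rpa1 (1.005) just past the cut-off. The correction takes the longest coding transcript of each gene, and which transcript the reads came from was not tested. Whether the relation with length is technical was not tested either.

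**Figure D3:**
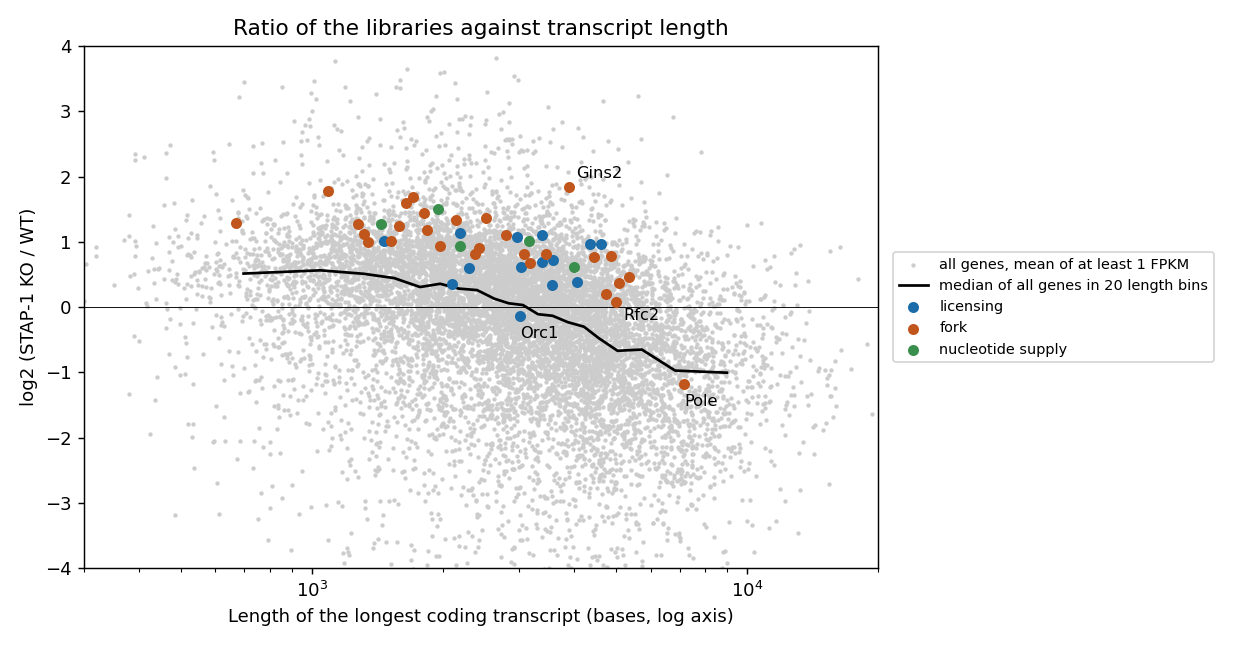
Log2 ratio of the libraries against the length of the longest coding transcript in bases (log axis) for all genes averaging 1 FPKM or more (grey), with their median in 20 length bins (line) and the members by group (coloured); genes beyond the axis limits are not drawn. The line falls with length (medians of 0.47 in the shortest and -0.76 in the longest of the 4 length classes), and most members lie above it, with Orc1 and Pole below.

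Further genes of the pathway were taken from lists of general knowledge. Of 17 listed genes that control licensing and firing, 14 had a log2 ratio above 0 (against 48.3% of all genes), with a median of 0.61, 3 were past 2-fold upwards (against 12.3%) and 0 downwards (against 22.9%). Besides Gmnn, these were Mcm8 (6.30 and 14.01 FPKM), a helicase gene of recombination, and Dbf4 (24.3 and 50.2 FPKM), the activator of the CDC7 kinase. After the correction Gmnn (0.69) and Dbf4 (0.63) were no longer past 2-fold. The S-phase cyclin gene Ccna2 had 119 and 229 FPKM. Of 22 genes that act at the fork or in chromatin assembly behind it, 18 were above 0 (against 48.3% of all genes) with a median of 0.80, 8 were past 2-fold upwards (against 12.3%) and 1 downwards (against 22.9%). Chek1, the checkpoint kinase gene, had 7.24 FPKM in WT LSCs and 22.8 FPKM in STAP-1 KO LSCs, and Rnaseh2c, a subunit of the RNase that removes RNA from DNA, had 33.8 and 88.4 FPKM. The gene past 2-fold downwards was Atr, the kinase gene upstream of CHEK1 (5.68 and 2.71 FPKM), named after its value was seen, whose transcript has 8102 bases. After the correction Atr had a log2 ratio of -0.30, while Pold4, counted in the same list, went from -0.87 to -1.13 and was past 2-fold downwards.

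Of 13 genes of nucleotide supply outside the members, 9 were above 0 (against 48.3% of all genes) and the median was 1.14, with 7 past 2-fold upwards (against 12.3% of all genes) and 3 downwards, a share near the 22.9% of all genes. Dctd, the dCMP deaminase gene that feeds thymidylate synthesis, had 12.3 FPKM in WT LSCs and 45.0 FPKM in STAP-1 KO LSCs, and Shmt1, a serine hydroxymethyltransferase gene, had 23.9 and 81.3 FPKM. Dctpp1, which encodes a pyrophosphatase that cleans the dNTP pool, had 75.2 and 207 FPKM. The 3 genes past 2-fold downwards were Cad, Tk2 and Samhd1. Cad, the first enzyme gene of pyrimidine synthesis, had 38.2 and 9.13 FPKM. Its transcript has 7137 bases, and its log2 ratio of -2.05 became -0.77 after the correction. Tk2, the mitochondrial thymidine kinase gene, had 21.1 and 9.27 FPKM, in contrast to the cytosolic Tk1, and Samhd1, whose product breaks down dNTPs, had 41.7 and 20.4 FPKM (both named after their values were seen). After the correction Samhd1 was at -0.80 and, like Cad, no longer past 2-fold.

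Of the 13 E2F and RB family genes, 8 were above 0 (against 48.3% of all genes) with a median of 0.25, and 0 were past 2-fold upwards (against 12.3%) and 3 downwards, again near the 22.9% of all genes. Rb1, the retinoblastoma repressor gene, had 54.2 FPKM in WT LSCs and 10.7 FPKM in STAP-1 KO LSCs, a log2 ratio of -2.33 that was -2.12 after the correction. Its relative Rbl2, which acts in resting cells, had 31.6 and 8.86 FPKM, and E2f2 had 7.83 and 1.52 FPKM. Tfdp1, the dimer partner of E2F factors, had 47.4 and 88.1 FPKM. E2f1, an activator named after its value was seen, had 18.7 and 29.1 FPKM, and Rbl1, the remaining RB family gene, likewise named afterwards, had 21.5 and 34.2 FPKM, so that the RB family differed in both directions. After the correction Rbl1 (1.10) and E2f3 (1.17, also named afterwards) were past 2-fold upwards, and Rbl2 (-1.22) and E2f2 (-1.60) stayed past it downwards.

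**Figure D4:**
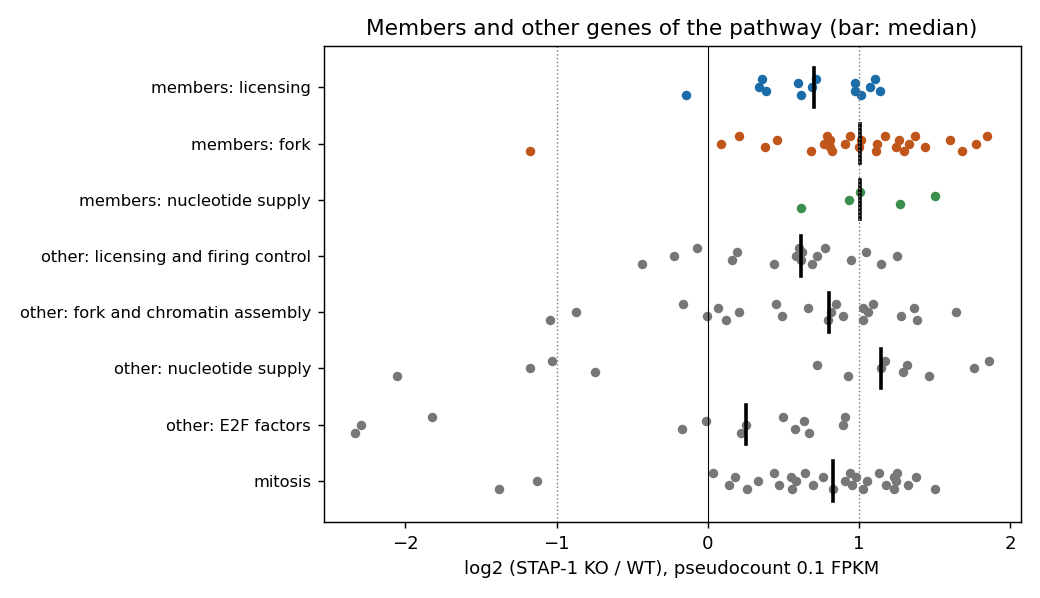
Log2 ratio (STAP-1 KO over WT) of each member by group (coloured) and of the further genes of the pathway and of mitosis by list (grey), 1 point per gene with a mean of at least 1 FPKM; bars give the medians and dotted lines mark 2-fold. The medians are 0.70, 1.006 and 1.008 for the member groups, 0.61, 0.80, 1.14 and 0.25 for the further pathway lists and 0.82 for mitosis genes.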

How the data were processed

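The authors mapped 75-base single-end reads of the SMART-Seq libraries to mm10. The processing notes in the labels name TopHat2 2.0.13, Bowtie2 2.2.3, SAMtools 0.1.19 and Cufflinks 2.2.1, and the deposited values are FPKM from Cuffnorm. The study's methods give another SAMtools version. The gene annotation and the scaling by Cuffnorm are not given in the sources used here. Ratios and medians were derived from them in Python 3.11.15 (scipy 1.17.1, pandas 2.3.3, numpy 2.4.6), and figures in matplotlib 3.10.9. No test of the genotype was made, with 1 library per genotype. Of the symbols, 20911 matched GENCODE M21 (GRCm38) as written, 1900 by an older symbol, and 473 had no match. The length of the longest coding transcript was used. At the effective depths, whole reads (within 0.01) were reached by 42.5% of the 414 low values in WT and 48.6% of the 414 in STAP-1 KO, where an even spread gives 2%, and 207 and 210 bases were taken off each transcript. For 2000 bases, 3 reads correspond to 0.223 and 0.16 FPKM. Length and GC correction subtracted the median of all genes in 20 bins of length and then of GC content. The steps were tested on simulated data. The members and lists were chosen with earlier results of these data known. Besides members, the text names Stap1 and the top of each list by absolute log2 ratio (pseudocount 1 FPKM), at most 4 per pathway list and 2 per marker list. Overlapping genes and completing subunits were named as such. Some genes of the further lists are counted in them but not reported here by name.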

Additional observations from a re-analysis of the deposited data

How the results depend on the processing

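Other scalings of the libraries shifted the median of all genes to 0.00 (median ratio set to 1), 0.06 (trimmed mean of M values) and 0.13 (equal total FPKM over features of at least 200 bases). At 1.5-fold, 38 members were higher (against 25.6% of all genes), and at 3-fold 4 were higher (against 4.21%) and 0 lower (against 12.95%). The share of Pold4 in polymerase delta in WT was 24.7% by reads per kilobase, below Pold2 at 27.4%, against 27.9% and 27.3% by FPKM. The length and GC correction left 0 members at least 2-fold lower (against 18.4% of all genes) and gave medians of 0.75 for all members and 0.80 for fork genes. Equal total FPKM gave 1.14 for all members and 0.78 for the other licensing and firing genes, and put Orc1 at 0.027, while the correction put Orc5 at -0.080; the cause of these shifts was not tested. The other pseudocounts, minimum values and the assignment of Mcm2 to Mcm7 to the fork (licensing 0.49, fork 0.99) kept the medians within the 95% order-statistic interval of each median over its genes, as did leaving out, chosen after seeing the data, the 13 members that share at least 5% of their exonic bases with another gene. That interval treats genes as independent, which they are not, and serves only as a yardstick. For licensing it was wide (0.36 to 1.07), and with Mcm2 to Mcm7 moved the licensing and fork medians lay further apart than at 0.70 and 1.006. No paired analysis was possible because each genotype has 1 library. Counting limits single members at low levels most, and variation between mice cannot be assessed.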

Other observations

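Mitosis genes, which act after replication, were set beside the members. Of 31 genes, 29 had a log2 ratio above 0 (against 48.3% of all genes), with a median of 0.82, 11 were past 2-fold upwards (against 12.3%) and 2 downwards (against 22.9%). Cdk1, the mitotic kinase gene, had 36.5 FPKM in WT LSCs and 103 FPKM in STAP-1 KO LSCs, Ttk, a spindle checkpoint kinase gene, had 10.8 and 28.2 FPKM, and the Aurora kinase genes Aurka and Aurkb had 49.4 and 124 FPKM and 67.9 and 161 FPKM. The 2 genes past 2-fold downwards, named after their values were seen, were Espl1, which encodes separase, with 9.28 and 3.51 FPKM, and the proliferation marker gene Mki67, with 17.4 and 7.89 FPKM. Their transcripts have 6658 and 10061 bases, and with length and GC content taken into account their log2 ratios were both -0.19. Other genes of the list with a long longest coding transcript were higher, among them Mad2l1 (7557 bases, 2.19-fold higher), Cenpe (7910 bases, 1.10-fold) and Cenpf (11130 bases, 1.52-fold), named afterwards as well. Which transcript of these genes the reads came from, and the part of length in their values, was not tested. The flow cytometry of the paper, described above, found no significant difference in cell cycle status between the genotypes. The relation of the mitosis mRNAs to it was not tested either.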
